A study of Mus musculus with 36 samples.

Results

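The transcripts described here are those of the 7 H3K4 methyltransferase enzymes of the MLL/KMT2 and SETD1 family: Kmt2a, Kmt2b, Kmt2c, Kmt2d, Kmt2e, Setd1a and Setd1b. They were chosen by name as members of this family, and are 7 of the 51734 gene symbols in the count table. All 7 were among the 20511 genes that passed the filter on low counts. The question was whether transcripts of other enzymes of the family were higher where 1 or 2 of them had been disabled.

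These enzymes place methyl groups on lysine 4 of histone H3, a mark of promoters and enhancers. They form pairs of close relatives: MLL1 and MLL2 (Kmt2a and Kmt2b) act at promoters of developmental genes, MLL3 and MLL4 (Kmt2c and Kmt2d) deposit monomethylation at enhancers, and SETD1A and SETD1B (Setd1a and Setd1b) carry out most trimethylation at active promoters. Each works with a shared core of WDR5, RBBP5, ASH2L and DPY30. MLL5 (Kmt2e) has a SET domain too, but it binds methylated H3K4 and its own activity on H3K4 is not established.

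Polyadenylated RNA was sequenced from mouse embryonic stem cells of the E14 line (ESC) and, after treatment with retinoic acid (RA), from the neural precursor cells (NPC) that they form. The 3 genotypes were wild type (WT), the line labelled MLL3/4 dCD, in which MLL3 and MLL4 are without catalytic activity (dCD), and the line labelled MLL2 dTAG, in which MLL2 carries a degron tag (MLL2dTAG). The compound dTAG-13 directs a tagged protein to degradation, and the labels give it for all 18 libraries, WT and ESC included. In NPC it was present at 2 µM from day 1 until harvest on day 4, and for ESC neither dose nor duration is given in the sources used here. Each group had 3 libraries. Nothing says that these came from separate cultures or that a genotype was more than 1 clone, so p-values measure only the spread between libraries, and genotype cannot be told apart from line. Libraries that combined dCD with MLL2dTAG were not analysed here.

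Total counts were 19430860 to 46041277 per library, and the members had 303 to 13568 counts in a library. The summed level of 8 pluripotency markers was 2654 to 3536 CPM (the count relative to the TMM-scaled library total) in ESC libraries and 28.7 to 153 CPM in NPC libraries. In WT, 7 of 8 neural markers and 6 of 6 endoderm markers were called higher in NPC than in ESC. Of 6 mesoderm markers, 4 were called higher and 2 lower. Of all genes tested, 39.1% were called higher there and 40.4% lower. The MLL2dTAG libraries stood apart in Y-linked transcripts: Ddx3y had 3.84 to 4.41 CPM in ESC MLL2dTAG against 69.3 to 88.7 CPM in the other ESC libraries, and 0.237 to 0.391 CPM in NPC MLL2dTAG against 73.4 to 84.0 CPM in the other NPC libraries. Eif2s3y and Uty stood apart in the same way. The part of this difference between lines in the results was not tested. In bulk RNA, fewer cells of a type and less RNA per cell cannot be told apart.

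Positions are on GRCm38, from the GENCODE M21 annotation. Kmt2a is at chr9:44803355-44881296, Kmt2b at chr7:30568858-30588726, Kmt2c at chr5:25271798-25498783 and Kmt2d at chr15:98831669-98871204, all on the minus strand. Kmt2e at chr5:23434441-23504235, Setd1a at chr7:127776670-127800122 and Setd1b at chr5:123142193-123168629 are on the plus strand. No source used here names the build behind the deposited counts.

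Levels of different genes were compared as CPM per kilobase of exon. In WT ESC the order was Kmt2b (22.1 ± 2.03, SD, n = 3), Kmt2a (13.3 ± 1.63), Kmt2c (9.49 ± 1.15), Kmt2d (9.28 ± 2.06), Setd1a (8.79 ± 0.663), Kmt2e (6.02 ± 0.58) and Setd1b (1.46 ± 0.133). With this length the ranges of Kmt2c and Kmt2d overlapped, as did those of Kmt2d and Setd1a, and the other neighbours in this order did not. With the longest transcript as the length the order was the same, but some neighbours lay close. Kmt2a was then at 13.4 and Kmt2c at 12.9, and Setd1a at 9.21 and Kmt2e at 8.59. Overlap of ranges was not examined with that length. Setd1b was the lowest of the family in WT ESC with either length. In WT NPC Kmt2e was first at 29.4 ± 0.266 CPM per kilobase, followed by Kmt2b at 19.1 ± 0.894 and Kmt2a at 18.4 ± 0.17, whose ranges overlapped. Setd1b was still last in WT NPC, at 6.49 ± 0.228 CPM per kilobase. It was last in the other 4 groups as well, except in NPC dCD when the longest transcript was used as the length.

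**Figure D1:**
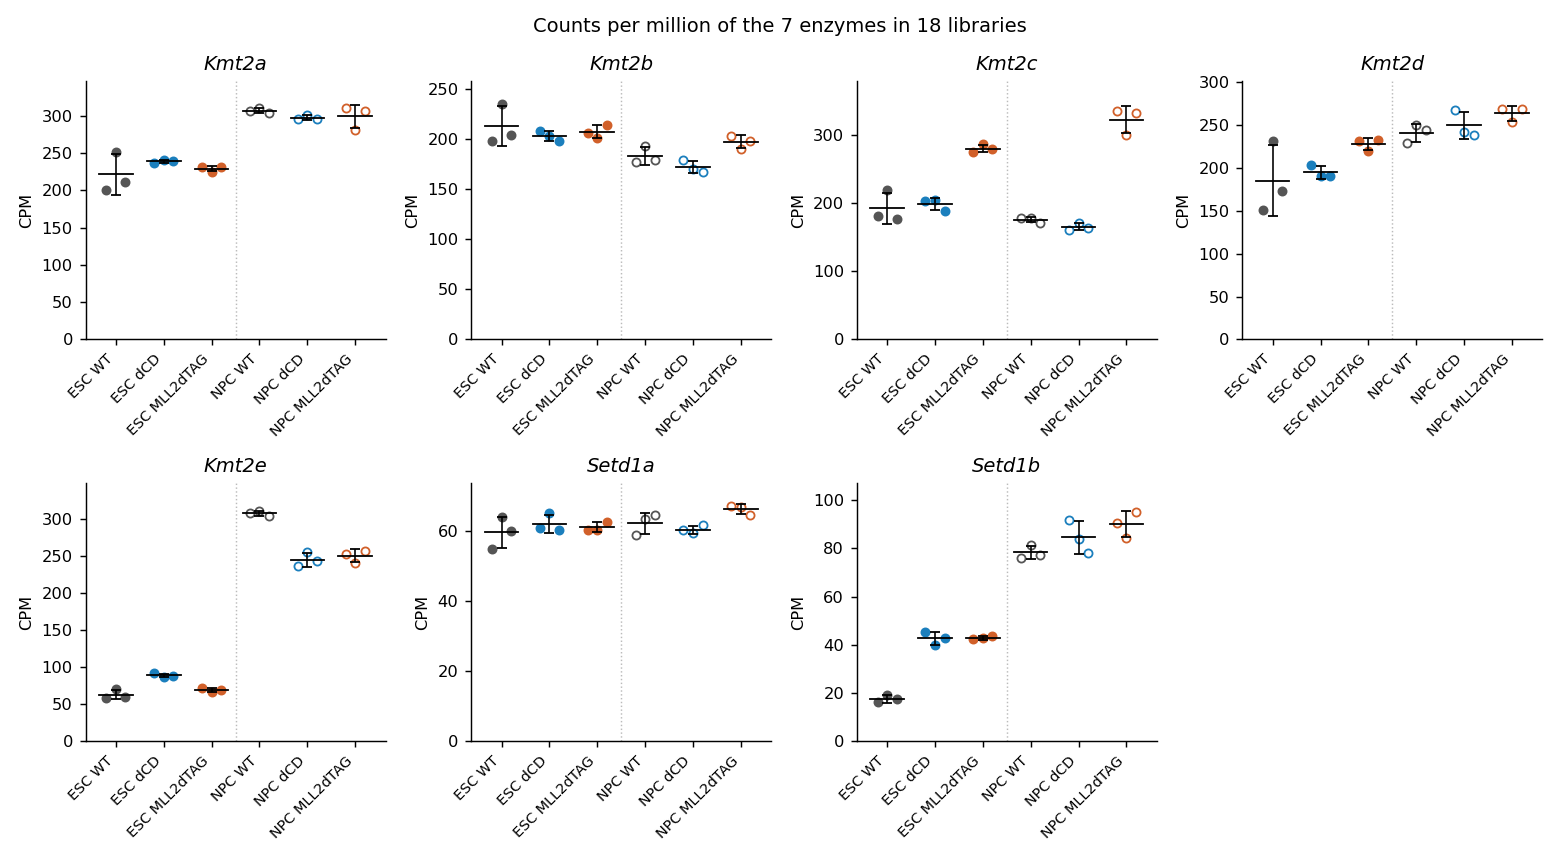
Level in CPM (vertical axes from 0) of each enzyme in the 6 groups, with a point per library, filled for ESC and open for NPC, a line at the mean of 3 libraries and a bar for the SD. Setd1b sits at 16.1 to 19.3 CPM in ESC WT and at 39.9 to 45.4 CPM in both other ESC groups, and Kmt2c is highest in the MLL2dTAG groups.

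The genes behind the disabled proteins were looked at first. Kmt2b had 198, 235 and 204 CPM in ESC WT and 206, 201 and 214 CPM in ESC MLL2dTAG, so these groups overlapped. Its log2 fold change in ESC was -0.04 (SE 0.05, 95% interval -0.13 to 0.05, edgeR quasi-likelihood test, adjusted p = 0.49). In NPC it had 177, 193 and 179 CPM in WT and 203, 190.3 and 198 CPM in MLL2dTAG, which overlapped too, and its log2 fold change was 0.11 (SE 0.05, adjusted p = 0.041). That call was lost under 9 of the 14 alternatives, among them DESeq2 with 0.10 and upper quartile scaling with 0.02, and when NPC WT replicate 1 (0.08) or 3 (0.09) or NPC MLL2dTAG replicate 1 (0.09) or 3 (0.10) was left out. A degron acts on the protein, so the transcript level does not check the label. Kmt2c and Kmt2d in dCD showed log2 changes of 0.04 and 0.07 in ESC and of -0.08 and 0.05 in NPC, with no call. Counts per gene do not show whether the coding sequence for the catalytic part was altered. The value of Kmt2c in ESC dCD was 0.15 and that of Kmt2d 0.26 without ESC WT replicate 2, both then called.

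Setd1b was the member with the largest change against WT. It had 16.1, 19.3 and 17.5 CPM in ESC WT, 45.4, 39.9 and 43.0 CPM in ESC dCD, and 42.3, 42.7 and 43.6 CPM in ESC MLL2dTAG. Every ESC library of both lines was above every ESC WT library. Its log2 fold change was 1.26 in dCD (SE 0.07, 2.4-fold, edgeR adjusted p = 7.3e-17) and 1.27 in MLL2dTAG (SE 0.07, 2.41-fold, adjusted p = 8.2e-18). The comparisons share the 3 WT libraries. The change ranged from 1.21 to 1.38 in dCD and from 1.21 to 1.34 in MLL2dTAG over all alternatives. Set directly against each other, the ESC lines differed in Setd1b by a log2 value of 0.0041 (95% interval -0.12 to 0.13, MLL2dTAG minus dCD), and by -0.12, called, when offsets for GC content and length were added.

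In NPC the lines were closer to WT in Setd1b. NPC WT had 76.2, 81.5 and 77.4 CPM, NPC dCD 92.0, 83.9 and 78.3 CPM, and NPC MLL2dTAG 90.6, 84.5 and 95.1 CPM. The dCD libraries overlapped with WT, and the MLL2dTAG libraries lay above WT. The log2 fold change was 0.11 in dCD (SE 0.05, adjusted p = 0.077) and 0.20 in MLL2dTAG (SE 0.05, adjusted p = 0.0013, with 0.11 and no call under upper quartile scaling). The nearest tested genes on either side, AI480526 and Psmd9, were not called in ESC of either line, with log2 changes of 0.09 and 0.16 in dCD and of -0.30 and 0.08 in MLL2dTAG.

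Setd1a, the close relative of Setd1b, was not called in any of the 4 comparisons with WT. It had 55.0, 64.0 and 60.2 CPM in ESC WT, 61.0, 65.2 and 60.3 CPM in ESC dCD, and 60.5, 60.5 and 62.8 CPM in ESC MLL2dTAG. All 3 groups overlapped, and the 95% intervals of the log2 change were -0.05 to 0.15 in dCD and -0.07 to 0.13 in MLL2dTAG. In NPC the intervals were -0.14 to 0.05 in dCD and -0.01 to 0.18 in MLL2dTAG.

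Kmt2c rose in MLL2dTAG at both stages. In ESC it had 181, 219 and 177 CPM in WT and 275, 286 and 279 CPM in MLL2dTAG. In NPC it had 178, 178 and 171 CPM in WT and 335, 299.6 and 332 CPM in MLL2dTAG. The groups did not overlap at either stage. The log2 fold change was 0.54 in ESC (SE 0.05, 1.45-fold, edgeR adjusted p = 3.9e-11) and 0.88 in NPC (SE 0.05, 1.84-fold, adjusted p = 4.6e-17). It ranged from 0.48 to 0.65 in ESC and from 0.79 to 0.93 in NPC over all alternatives. Against dCD, Kmt2c was higher in MLL2dTAG by 0.49 in ESC and by 0.96 in NPC on the log2 scale, both called. For 760 chromosome 5 genes averaging 5 CPM or more, the median log2 change was 0.0872 in ESC MLL2dTAG and 0.145 in NPC MLL2dTAG. Both were smaller than the Kmt2c changes. Medians of the 19 autosomes ran from -0.017 to 0.104 in ESC and from 0.028 to 0.162 in NPC. These ranges include chromosome 5, so they cannot show whether it stood apart. Higher medians were found on chromosomes 7 (0.0901), 11 (0.0923) and 16 (0.104) in ESC. In NPC they were on chromosomes 16 (0.162) and 19 (0.161).

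Kmt2d, the relative of Kmt2c, had 151, 231 and 173 CPM in ESC WT and 231, 220.3 and 233 CPM in ESC MLL2dTAG. The highest WT library reached the MLL2dTAG range. The log2 fold change was 0.30 in ESC (SE 0.07, edgeR adjusted p = 7.9e-04), and it was 0.18 without ESC WT replicate 1 and 0.49 without ESC WT replicate 2. In NPC it had 229.7, 250.1 and 244 CPM in WT and 269, 254 and 269 CPM in MLL2dTAG. These did not overlap, and the log2 fold change of 0.13 was not called (SE 0.07, adjusted p = 0.12).

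The promoters of Kmt2c and Kmt2d are shown because both genes were called higher in ESC MLL2dTAG, and they were chosen after the values were seen. Setd1b and Kmt2e were called higher there too, and their promoters are not shown because the sequence table used here has no entry for them. As background, MLL2 has a CXXC domain that binds unmethylated CpG dinucleotides. Each sequence is the 250 bases before the annotated start, from RefSeq on GRCm38.p6, on the gene's strand, with each CpG in capitals. That of Kmt2c is at chr5:25498784-25499033 and that of Kmt2d at chr15:98871206-98871455, both on the minus strand.
Kmt2c: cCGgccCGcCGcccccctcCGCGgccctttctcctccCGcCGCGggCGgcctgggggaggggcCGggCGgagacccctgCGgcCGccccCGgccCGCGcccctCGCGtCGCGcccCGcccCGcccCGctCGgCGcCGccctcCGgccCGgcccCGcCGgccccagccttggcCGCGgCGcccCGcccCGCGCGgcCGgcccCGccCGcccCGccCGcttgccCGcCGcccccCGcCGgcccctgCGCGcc
Kmt2d: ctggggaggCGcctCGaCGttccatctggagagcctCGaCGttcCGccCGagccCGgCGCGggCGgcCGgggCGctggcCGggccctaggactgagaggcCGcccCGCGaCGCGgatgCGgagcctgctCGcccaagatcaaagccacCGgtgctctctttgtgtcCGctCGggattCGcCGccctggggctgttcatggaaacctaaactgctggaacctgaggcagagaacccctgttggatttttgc
The Kmt2c sequence held 48 CpG and was 91.6% G or C, and the Kmt2d sequence held 26 CpG at 67.6% G or C. The dinucleotide CG reads the same on both strands. The median over 32851 promoter windows of this length was 6 CpG, and 0.186% held as many as Kmt2c. As many as Kmt2d were found in 9.59%. Kmt2a held 29 and Setd1a 25 CpG in the same window.

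**Figure D2:**
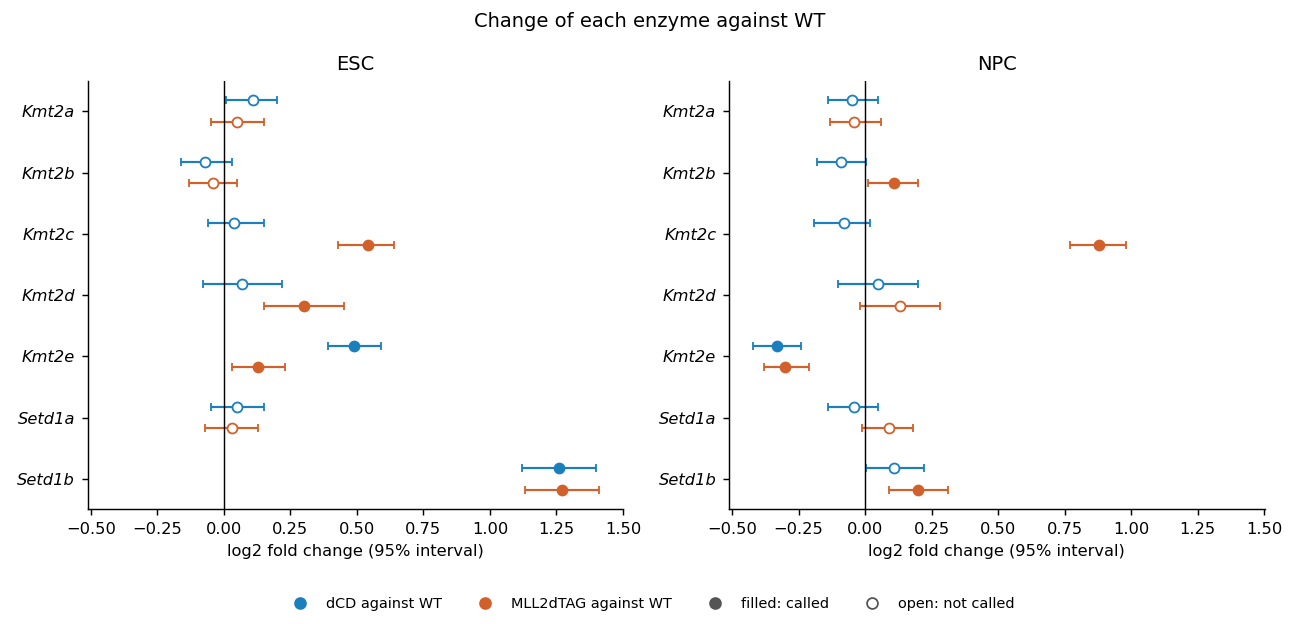
Log2 fold change against WT of each enzyme (horizontal axis, bars are 95% intervals) in ESC on the left and NPC on the right, in dCD and in MLL2dTAG, with filled points for changes called at an adjusted p under 0.05. Setd1b lies at 1.26 and 1.27 in ESC, and Kmt2c lies at 0.54 in ESC and 0.88 in NPC for MLL2dTAG alone.

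Genes next to Kmt2c and Kmt2b also changed in the MLL2dTAG line. Galnt11, which encodes an enzyme of O-linked glycosylation, ends 5880 bp from the 3′ end of Kmt2c on the opposite strand. It had 40.6, 41.5 and 42.8 CPM in ESC WT and 15.1, 14.1 and 13.9 CPM in ESC MLL2dTAG, with no overlap. In NPC it had 40.0, 39.6 and 38.5 CPM in WT and 24.2, 26.1 and 28.0 CPM in MLL2dTAG, again apart. Its log2 fold change was -1.54 in ESC (SE 0.06, edgeR adjusted p = 3.7e-21) and -0.59 in NPC (SE 0.06, adjusted p = 1.8e-11). Thus Galnt11 fell where Kmt2c rose. In dCD the log2 change of Galnt11 was 0.11 in ESC, with no call, and 0.33 in NPC, called. On the other side of Kmt2c, 284 bp from its start, the long noncoding RNA gene 4831440E17Rik was not called in MLL2dTAG (-0.64 in ESC and 0.03 in NPC).

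Zbtb32, which encodes a zinc finger transcription factor, lies 955 bp upstream of the start of Kmt2b on the same strand. It had 19.7, 22.3 and 22.9 CPM in ESC WT and 52.5, 55.8 and 54.5 CPM in ESC MLL2dTAG, with no overlap. Its log2 fold change was 1.32 in ESC MLL2dTAG (SE 0.07, edgeR adjusted p = 1.1e-17). In NPC MLL2dTAG it was 2.20 (SE 0.13, adjusted p = 6.5e-17), at a low level of 6 to 7.27 CPM against 1.22 to 1.56 CPM in NPC WT. Zbtb32 was not called in ESC dCD (0.01) and was lower in NPC dCD (-0.93). U2af1l4, on the other side of Kmt2b, was not called in any of the 4 comparisons with WT. How the tag was placed at Kmt2b is not stated in the sources used here, and its part in this change was not tested.

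**Figure D3:**
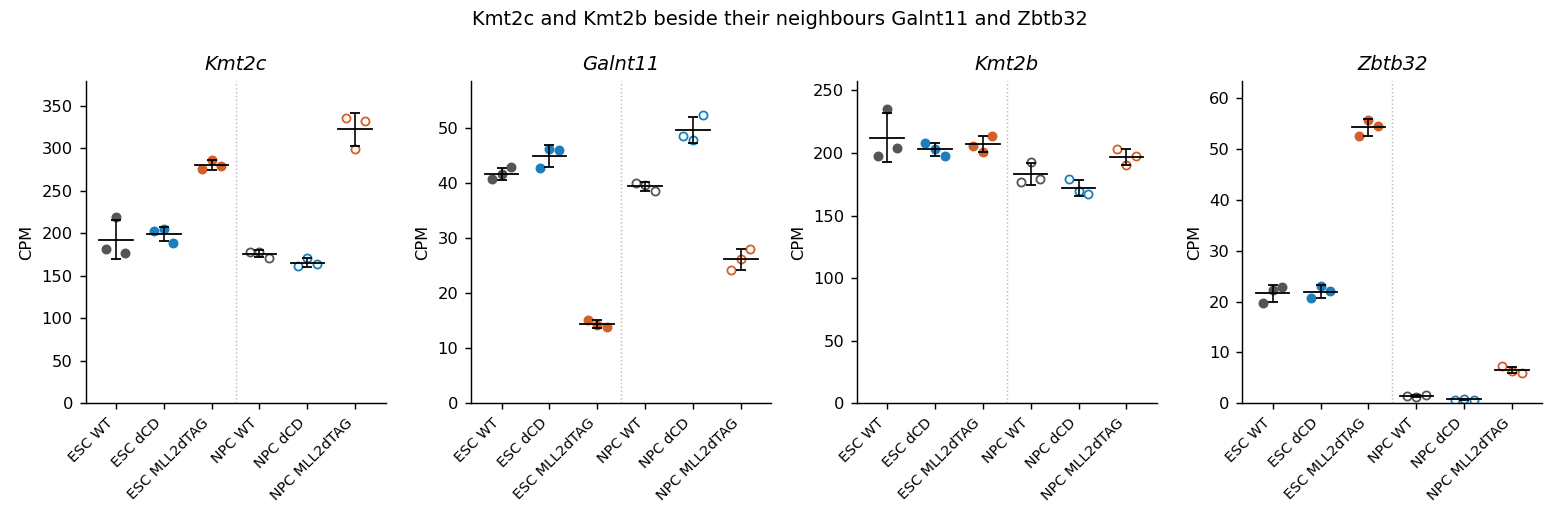
Level in CPM (vertical axes from 0) of Kmt2c and its neighbour Galnt11, and of Kmt2b and its neighbour Zbtb32, in the 6 groups, with a point per library, a line at the mean and a bar for the SD. Galnt11 sits at 13.9 to 15.1 CPM in ESC MLL2dTAG against 40.6 to 42.8 CPM in ESC WT, and Zbtb32 at 52.5 to 55.8 CPM against 19.7 to 22.9 CPM.

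Kmt2e was higher than WT in ESC and lower than WT in NPC in both lines, with a smaller and less stable value in ESC MLL2dTAG. In ESC it had 58.7, 69.8 and 60.1 CPM in WT, 91.3, 87.1 and 87.9 CPM in dCD, and 72.2, 66.9 and 68.7 CPM in MLL2dTAG. The dCD libraries were above all WT libraries, and those of MLL2dTAG overlapped with WT. The log2 fold change was 0.49 in dCD (SE 0.05, 1.41-fold, edgeR adjusted p = 2.1e-10) and 0.13 in MLL2dTAG (SE 0.05, adjusted p = 0.021). The MLL2dTAG call was lost without ESC WT replicate 1 (0.09), ESC WT replicate 3 (0.10) or ESC MLL2dTAG replicate 1 (0.11), with upper quartile scaling (0.08) and in a fit of the 2 groups alone (0.13), and the value was 0.22 without ESC WT replicate 2.

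In NPC, Kmt2e had 307, 310.0 and 304 CPM in WT, 236, 255 and 243 CPM in dCD, and 253, 240.0 and 257 CPM in MLL2dTAG. All libraries of both lines were below all WT libraries. The log2 fold change was -0.33 in dCD (SE 0.04, edgeR adjusted p = 2.7e-08) and -0.30 in MLL2dTAG (SE 0.04, adjusted p = 1.5e-07). Kmt2e shares 972 bp of exon with Srpk2, a kinase gene on the opposite strand. The kit keeps strand, but the sources used here do not say whether the counting used it. Srpk2 was lower in both lines at both stages, with log2 changes of -0.44 and -0.43 in ESC and of -0.31 and -0.20 in NPC for dCD and MLL2dTAG.

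Kmt2a, the closest relative of Kmt2b, was not called against WT in either line at either stage. It had 201, 252 and 211 CPM in ESC WT, 236, 241 and 239 CPM in ESC dCD, and 231, 225 and 231 CPM in ESC MLL2dTAG. ESC WT replicate 2 lay above all other ESC libraries, and the remaining WT libraries lay below them. The 95% interval of the log2 change in MLL2dTAG was -0.05 to 0.15 in ESC and -0.13 to 0.06 in NPC. Without ESC WT replicate 2, Kmt2a was called higher in ESC dCD (0.21) and in ESC MLL2dTAG (0.16).

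That library was the highest of the ESC WT group for each of the 7 members. Its median deviation was taken over 1514 long genes, those averaging 5 CPM or more with transcripts of at least 6487 bp. On the log2 scale it was -0.0315, against -0.179 and -0.153 in the other ESC WT libraries and -0.202 to -0.119 in the other ESC groups. The calls of Setd1b, Kmt2c and Kmt2e described above for ESC held without it, and the part of this library in the smaller ESC values is as given beside them.

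Counting calls in either direction, the shares of called members were close to or below those of all genes. Taken by direction, the share called higher in MLL2dTAG was above that of all genes at both stages, among only 7 members. In ESC dCD, 2 of 7 were called, both higher, where 48.3% of all genes tested were called (25.7% higher and 22.6% lower). Without ESC WT replicate 2 it was 5 of 7. In ESC MLL2dTAG, 4 of 7 were called higher, against 56.9% of all genes (28.7% higher, 28.2% lower). In NPC dCD, 1 of 7 was called, lower, against 53.5% of all genes (26.7% higher, 26.8% lower). Without NPC dCD replicate 1 or 3 it was 2 of 7. In NPC MLL2dTAG, 3 of 7 were called higher and 1 lower, against 61.7% of all genes (33.3% higher, 28.4% lower). Of the genes called there, 54.0% were higher with TMM scaling and 44.7% with upper quartile scaling. The median log2 change of the 7 members was 0.07, 0.13, -0.05 and 0.11 in these comparisons, and that of all genes was 0.02, -0.0011, -0.02 and 0.03.

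The lines were also set against each other at each stage. In ESC, Kmt2c and Kmt2d were higher and Kmt2e was lower in MLL2dTAG than in dCD, at log2 values of 0.49, 0.23 and -0.36, and 47.2% of all genes were called (23.4% higher, 23.7% lower). The difference in Kmt2d was not called by DESeq2 (0.23) or under upper quartile scaling (0.17). In NPC, Kmt2c (0.96), Kmt2b (0.20) and Setd1a (0.13) were higher in MLL2dTAG, where 55.9% of all genes were called (31.6% higher, 24.3% lower). Of all genes called there, 56.5% were higher with TMM scaling (weighted trimmed mean) and 45.2% with upper quartile scaling. The Setd1a value was 0.05 and no longer called under upper quartile scaling, and it lost its call without NPC dCD replicate 2 (0.12).

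Other cell type markers moved with the genotypes in NPC. In NPC MLL2dTAG, 7 of 8 pluripotency markers were called higher than in WT, their sum was 153 CPM against 28.7 to 30.0 CPM, and Dppa3 was at 0 counts in both. All 6 endoderm markers were higher, with a sum of 529 to 546 CPM against 210.3 to 219 CPM. In NPC dCD, 6 of 8 neural markers were called higher, with a sum of 433 to 466 CPM against 232 to 238 CPM, and none was at 0 counts. In NPC MLL2dTAG the neural markers were divided, with 4 higher and 3 lower (Pax6, Neurog2 and Hoxb4) and a sum of 287 to 293 CPM. In NPC dCD, 4 of 6 endoderm markers were lower, with a sum of 182 to 188 CPM. The sum of 6 mesoderm markers was 285 to 326 CPM in NPC dCD, 310.2 to 311 CPM in NPC MLL2dTAG and 249.6 to 262 CPM in NPC WT. These sums combine opposite changes, since 2 markers were higher and 1 lower in each line: Meox1 (-1.89) was lower in dCD, and Pdgfra (1.35) was higher and Col1a1 (-0.64) lower in MLL2dTAG. In ESC, where Setd1b rose, the sums of neural markers were 129 to 135 CPM in dCD, 112 to 119 CPM in MLL2dTAG and 105 to 108 CPM in WT. Neurog2 was at 0 counts in ESC WT and ESC MLL2dTAG. The mesoderm sums in ESC were 288 to 333, 319 to 347 and 191 to 249 CPM in the same order, and the endoderm sums were 11.9 to 12.7, 30.7 to 34.4 and 15.6 to 17.7 CPM. The ESC pluripotency sums were 2654 to 2764 CPM in dCD, 3435 to 3536 in MLL2dTAG and 2746 to 2872 in WT. Some of these ESC sums combine opposite changes. In ESC dCD, neural markers were 4 higher and 0 lower, mesoderm 4 and 0, endoderm 0 and 2, and pluripotency 2 and 4. In ESC MLL2dTAG the numbers in that order were 3 and 2, 5 and 1, 3 and 1, and 6 and 2. The shares of all genes called are those given above. T was higher in dCD (1.92) and lower in MLL2dTAG (-1.34). The part of these markers in the members' changes was not tested.

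In WT, 6 of the 7 members were called between ESC and NPC, where 79.5% of all genes were called (39.1% higher, 40.4% lower). Kmt2e and Setd1b moved most. From the ESC and NPC levels given above, Kmt2e rose by a log2 value of 2.28 (SE 0.05, 4.87-fold, edgeR adjusted p = 2.7e-31) and Setd1b by 2.14 (SE 0.06, 4.4-fold, adjusted p = 3.5e-26). No WT NPC library overlapped with a WT ESC library for either gene. Kmt2a had 307, 309.8 and 304 CPM in NPC WT, above all ESC WT libraries, with a log2 change of 0.47. Kmt2d (0.38) was called higher as well, while Kmt2b (-0.22) and Kmt2c (-0.14) were called lower and Setd1a (0.06) was not called. The Kmt2c call was lost without ESC WT replicate 2 (-0.03) or NPC WT replicate 3 (-0.12), and the Kmt2b value was -0.14 without ESC WT replicate 2.

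Long transcripts as a group moved with the stage. These were the 1514 genes averaging 5 CPM or more with a transcript at least as long as that of the shortest member. Their median log2 change from ESC to NPC was 0.296 in WT, 0.339 in dCD and 0.288 in MLL2dTAG. For all 11805 genes averaging 5 CPM or more the medians were 0.00532, 0.0286 and 0.0425. Medians of all genes tested ran from -0.04 to 0. With offsets for GC content and length, Kmt2e (1.80) and Setd1b (1.49) were still higher in WT NPC, Kmt2b (-0.87) and Kmt2c (-0.54) were lower, and Setd1a was called lower (-0.45). Kmt2a lost its call at 0.04, and Kmt2d changed direction, to -0.13. The calls of Kmt2a, Kmt2d and Setd1a between stages therefore depended on this choice.

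**Figure D4:**
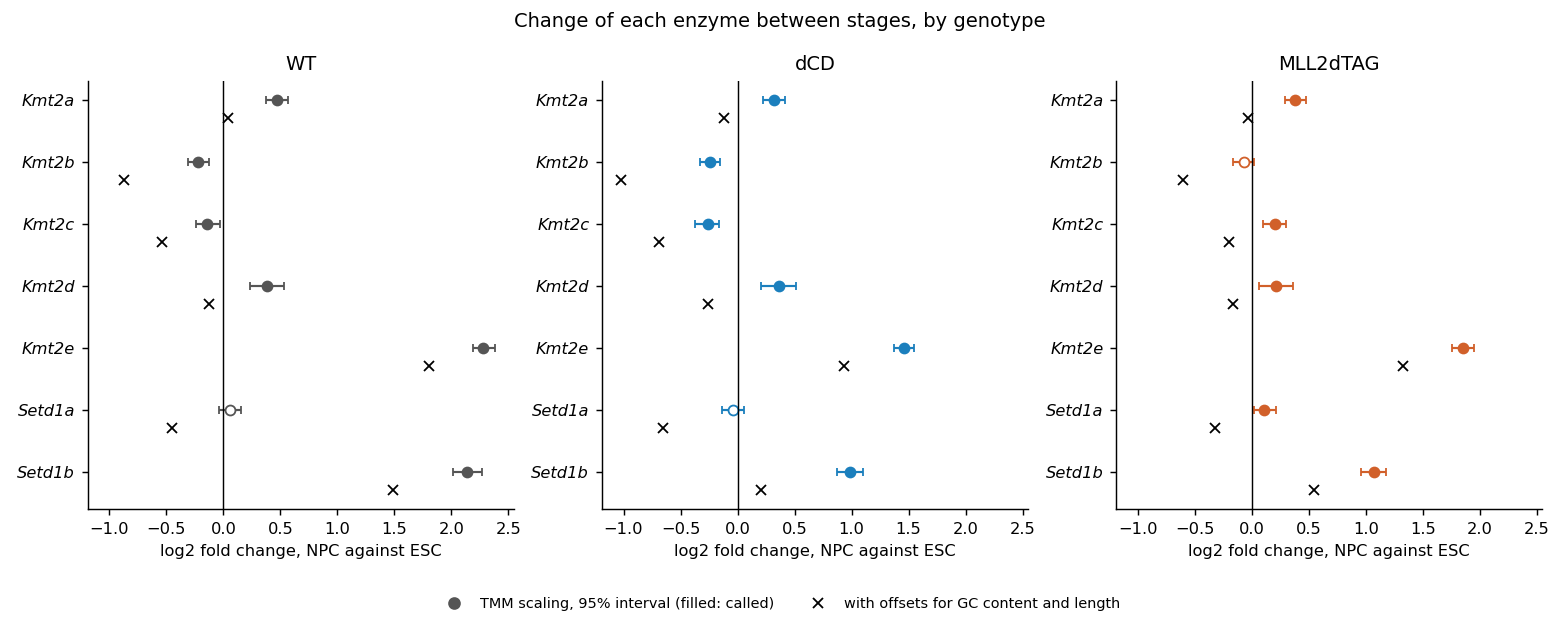
Log2 fold change from ESC to NPC of each enzyme (horizontal axes) in WT, dCD and MLL2dTAG, as points with 95% intervals (filled where called), and as crosses for the same change with offsets for GC content and length. Kmt2e and Setd1b lie to the right of 0 in all 3 genotypes with either setting, and each cross lies to the left of its point.

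The same 6 members were called between stages in dCD, where 77.6% of all genes were called (38.7% higher, 39.0% lower). Kmt2e rose by 1.46 and Setd1b by 0.99 on the log2 scale, and Kmt2a (0.32), Kmt2d (0.36), Kmt2b (-0.24) and Kmt2c (-0.26) changed as in WT. In MLL2dTAG, 78.2% of all genes were called (39.9% higher, 38.3% lower). There Kmt2e rose by 1.85 and Setd1b by 1.07, Kmt2a (0.38), Kmt2d (0.21), Kmt2c (0.20) and Setd1a (0.11) were called higher, and Kmt2b (-0.07) was not called. With the offsets, Setd1b was still called higher, at 0.21 in dCD and 0.55 in MLL2dTAG. The offsets reversed Kmt2a and Kmt2d in both lines and Kmt2c and Setd1a in MLL2dTAG, and upper quartile scaling reversed Setd1a in MLL2dTAG (-0.01). The Setd1a call in MLL2dTAG was also lost when ESC or NPC MLL2dTAG replicate 1 or 2 was left out, each time at 0.11.

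The difference between stages in the effect of a genotype was tested as an interaction, the change against WT in NPC minus that in ESC. For dCD it was called for Setd1b (-1.15, SE 0.09, edgeR adjusted p = 3.5e-13) and Kmt2e (-0.82, SE 0.06, adjusted p = 8.0e-13), and 42.9% of all genes were called (20.0% higher, 22.9% lower). For MLL2dTAG it was called for Setd1b (-1.07, SE 0.09, adjusted p = 8.4e-13), Kmt2e (-0.43, SE 0.06, adjusted p = 7.7e-07) and Kmt2c (0.34, SE 0.07, adjusted p = 1.6e-04), and 49.0% of all genes were called (26.4% higher, 22.6% lower). Setd1b thus differed from WT less in NPC than in ESC in both lines, and Kmt2c in MLL2dTAG more (0.23 without ESC WT replicate 2). Without ESC WT replicate 2, 5 of 7 members were called in each interaction. The added calls were Kmt2a (-0.26), Kmt2c (-0.24) and Kmt2d (-0.21) for dCD, and Kmt2a (-0.19) and Kmt2d (-0.36) for MLL2dTAG.

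The balance within each pair of relatives was measured as the log2 ratio of counts in each library, which does not depend on scaling. Setd1a over Setd1b was 1.77, 1.73 and 1.78 in ESC WT, 0.43, 0.71 and 0.49 in ESC dCD, and 0.52, 0.50 and 0.53 in ESC MLL2dTAG. The ratio was lower in every ESC library of both lines than in any ESC WT library, by 1.22 and 1.24 in the mean. In NPC it was -0.37, -0.36 and -0.26 in WT, -0.61, -0.50 and -0.34 in dCD, and -0.43, -0.34 and -0.55 in MLL2dTAG, and the groups overlapped. The exact two-sided permutation p was 0.1 for each ESC comparison and 0.3 for each NPC comparison, and 0.1 is the smallest that 3 against 3 libraries allow. From ESC WT to NPC WT the ratio changed by -2.09.

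Kmt2c over Kmt2d was -0.37, -0.49 and -0.51 in NPC WT and 0.31, 0.24 and 0.31 in NPC MLL2dTAG. The groups did not overlap and differed by 0.74 (exact permutation p = 0.1). In ESC it was 0.26, -0.07 and 0.03 in WT and 0.25, 0.38 and 0.26 in MLL2dTAG, which overlapped (difference 0.22, exact permutation p = 0.3). In dCD the ratio overlapped with WT at both stages. Kmt2a over Kmt2b differed from WT by 0.18 (dCD) and 0.09 (MLL2dTAG) in ESC and by 0.04 and -0.15 in NPC, with exact permutation p of 0.1, 0.1, 0.5 and 0.1. The groups overlapped in NPC dCD and in no other of these comparisons. With 15 such comparisons and a smallest p of 0.1, none could pass 0.05.

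**Figure D5:**
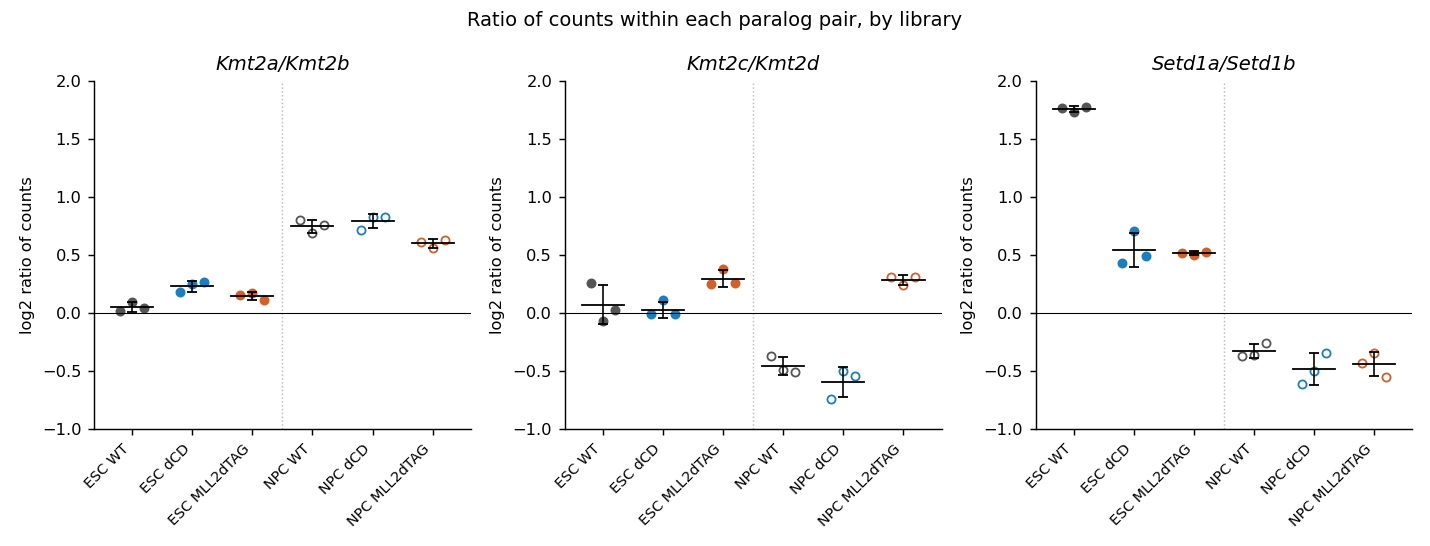
Log2 ratio of counts within each pair of relatives (vertical axis), with a point per library in the 6 groups, a line at the mean and a bar for the SD. Setd1a over Setd1b is 1.76 in the mean of ESC WT and 0.54 and 0.52 in the other ESC groups, and Kmt2c over Kmt2d is 0.29 in NPC MLL2dTAG against -0.46 in NPC WT.

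Summed over the 7 members, the ESC levels in CPM per kilobase were 70.5 ± 8.12 for WT, 76.2 ± 1.47 for dCD and 79.8 ± 1.3 for MLL2dTAG (SD, n = 3). The highest ESC WT library reached 79.7, so the groups overlapped. In NPC the sums were 103 ± 2.18 in WT, 95.8 ± 1.47 in dCD and 109 ± 4.1 in MLL2dTAG. The dCD libraries (94.1 to 96.8) lay below WT (102 to 106), and those of MLL2dTAG (104 to 111) overlapped with WT. The sum includes Kmt2e, the only member called in NPC dCD, at 29.4 ± 0.266 in NPC WT and 23.4 ± 0.93 in NPC dCD. The log2 changes there were -0.05 for Kmt2a, -0.09 for Kmt2b, -0.08 for Kmt2c and -0.04 for Setd1a. They were 0.05 for Kmt2d and 0.11 for Setd1b. Whether members other than Kmt2e had a part in the lower dCD sum was not tested. Kmt2c and Kmt2d together were 18.8 ± 3.16 in ESC WT and 25.2 ± 0.178 in ESC MLL2dTAG, and 20.7 ± 0.519 and 29.1 ± 1.4 in NPC, without overlap at either stage. Kmt2a and Kmt2b together were 35.4 ± 3.66 in ESC WT and 35.3 ± 0.847 in ESC MLL2dTAG, which overlapped.

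Transcripts of the complexes' subunits were followed as a list of 16 genes, of which 15 were tested. Pagr1a, with at most 3 counts in a group, did not pass the filter. Against WT, 6 were higher and 3 lower in ESC dCD, 9 and 2 in ESC MLL2dTAG, 4 and 7 in NPC dCD, and 8 and 1 in NPC MLL2dTAG, beside the shares of all genes given above. Their median log2 change was 0.06, 0.10, -0.07 and 0.12. Changes of at least 1.5-fold without overlap were found for Hcfc2 (0.70), a paralog of the host cell factor gene Hcfc1, and Men1 (0.63), which encodes menin of the MLL1 and MLL2 complexes, both in ESC MLL2dTAG. Men1 had 58.2, 55.5 and 58.2 CPM in ESC WT and 86.9, 90.3 and 88.2 CPM in ESC MLL2dTAG. In ESC dCD it had 76.8, 74.7 and 79.5 CPM and was called higher as well (0.43).

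From ESC to NPC, the shared core genes Wdr5, Dpy30, Ash2l and Rbbp5 were called lower in WT. There Wdr5 fell by 1.55, Dpy30 by 1.39, Ash2l by 1.15 and Rbbp5 by 0.79 on the log2 scale, and Hcfc2 rose by 1.28. Wdr5 had 363, 333 and 361 CPM in ESC WT and 119, 116 and 124 CPM in NPC WT. Of the 15 subunits, 5 were higher and 10 lower in WT and in dCD, and 6 were higher and 9 lower in MLL2dTAG. Of all genes, 79.5% were called in WT (39.1% higher, 40.4% lower), 77.6% in dCD and 78.2% in MLL2dTAG. In dCD the values were -1.76 for Wdr5, -1.64 for Dpy30, -0.94 for Rbbp5 and 1.22 for Hcfc2. In MLL2dTAG they were -1.57 for Wdr5, -1.35 for Dpy30, -1.09 for Rbbp5 and 0.99 for Hcfc2. These subunits kept their direction with the offsets for GC content and length.

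Another 5 enzymes reported to methylate H3K4 were followed as a list: Setd7, Smyd1, Smyd2, Smyd3 and Prdm9. In ESC MLL2dTAG, Setd7 fell by 1.19 on the log2 scale, from 70.9, 85.1 and 69.8 CPM in WT to 31.8, 33.1 and 34.2 CPM. Smyd1, a muscle enzyme, was low throughout, at 0.476 to 1.28 CPM in ESC WT, with log2 changes of 1.43 in ESC dCD, 1.34 in ESC MLL2dTAG and -1.41 in NPC dCD. Smyd2 was higher in ESC MLL2dTAG (0.59) and Smyd3 lower in NPC dCD (-0.67). Of the 5, the numbers higher and lower were 2 and 2 in ESC dCD, 3 and 2 in ESC MLL2dTAG, 0 and 3 in NPC dCD, and 2 and 1 in NPC MLL2dTAG, where 48.3%, 56.9%, 53.5% and 61.7% of all genes were called. Between stages, Smyd1 rose by 3.06 in WT and 2.27 in MLL2dTAG, Prdm9 by 1.11 in WT and 0.80 in dCD, and Setd7 by 1.02 in dCD and 2.17 in MLL2dTAG. Smyd3 fell by 0.63 in dCD. In NPC MLL2dTAG against dCD, Smyd1 (1.96) and Smyd3 (0.61) were higher, and in ESC Setd7 was lower (-0.76).

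Of 6 H3K4 demethylase genes, 1 was higher and 2 lower in ESC dCD, 2 and 2 in ESC MLL2dTAG, 3 and 3 in NPC dCD, and 2 and 4 in NPC MLL2dTAG, beside the same shares of all genes (48.3%, 56.9%, 53.5% and 61.7%). The Y-linked Kdm5d had 7.88, 6.5 and 6.79 CPM in NPC WT and 0, 0.0442 and 0.104 CPM in NPC MLL2dTAG, 6 counts in all. In ESC it had 2.24, 2.36 and 3.33 CPM in WT, 1.25, 1.55 and 1.2 CPM in MLL2dTAG and 5.25, 5.67 and 5 CPM in dCD. Like the Y-linked genes named above, Kdm5d was lower than WT in MLL2dTAG, at log2 values of -1.01 in ESC and -7.00 in NPC. In proportion its ESC fall was smaller than that of Ddx3y, which had 69.3 to 75.7 CPM in WT and 3.84 to 4.41 CPM in MLL2dTAG. In ESC dCD Kdm5d was called higher (0.98). Kdm1b rose in NPC MLL2dTAG (0.63). Between stages in WT, Kdm5a rose by 0.76 and Kdm5d by 1.39, and Kdm1b fell by 0.64. Kdm1a fell by 0.69 in dCD and Kdm5b by 0.72 in MLL2dTAG, where Kdm5a rose by 0.73.

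For the 3 members whose highest group mean was at least 1.5 times the lowest, the genes with the most similar pattern over the 6 group means were listed by the root mean square difference of centred log2 CPM. For Setd1b (5.1-fold range) these were Jrk (0.101), Sphk2 (0.115) and Zfp27 (0.127). Jrk had group means of 6.03, 12.8 and 15.2 CPM in ESC WT, dCD and MLL2dTAG and of 27.5, 29.0 and 34.7 CPM in NPC. For Kmt2e (4.89-fold range) they were Jam3 (0.076), Bcl9 (0.077) and Mast4 (0.092). For Kmt2c (1.95-fold range) they were Colgalt1 (0.123), Slc5a6 (0.125) and Fkbp9 (0.130), and Colgalt1 had 140.1, 138 and 181 CPM in ESC and 134, 138 and 214 CPM in NPC in the same order of groups. The group means come from shared libraries, so this likeness is a description.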

How the data were processed

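Poly(A) RNA libraries of 6 groups with 3 libraries each were analysed. The deposited values are raw counts per gene, made by the authors with HTSeq per the submitters' processing notes. The sources used here name no aligner, genome build or strand setting of the counting. Another 6 columns, whose names did not identify 1 sample, were not used. Totals were 19430860 to 46041277 counts per library.

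The filter on low counts was filterByExpr by group, libraries were scaled by TMM, and edgeR 4.0.16 (R 4.3.3) fitted 1 mean per group over all 18 libraries. Quasi-likelihood p-values were adjusted by Benjamini-Hochberg over 20511 genes, and a gene was called at an adjusted p under 0.05. Standard errors came from the log2 fold change and its F statistic. The fit was tested on simulated data. CPM used the TMM-scaled totals, and lengths were the union of exons. Ratios within pairs were tested by exact permutation.

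Members and lists were chosen with earlier results of these data known. Named from each list were at most 4 called genes per comparison with the largest change, of at least 1.5-fold and without overlap. Neighbours were the nearest tested gene on each side and genes that overlap a member, of which those that the text turns on are named, and likeness named 3 genes, among those averaging 5 CPM or more. Alternatives were RLE and upper quartile scaling, DESeq2 1.42.0, no filter, only the groups compared, a replicate block, halved counts, offsets for GC content and length (mgcv 1.9.3, for 95.8% of genes), and leaving out each library.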

Additional observations from a re-analysis of the deposited data

Results flagged for a closer look

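The effect of a genotype differed between ESC and NPC for 3 members, by the interaction in edgeR's quasi-likelihood test. In dCD the change of Setd1b against WT was smaller in NPC than in ESC by a log2 difference of -1.15 (95% interval -1.33 to -0.97, adjusted p = 3.5e-13). In the same line the change of Kmt2e went from 0.49 in ESC to -0.33 in NPC, a difference of -0.82 (-0.95 to -0.69, adjusted p = 8.0e-13).

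In MLL2dTAG the difference was -1.07 for Setd1b (-1.24 to -0.89, adjusted p = 8.4e-13) and -0.43 for Kmt2e (-0.56 to -0.30, adjusted p = 7.7e-07). For Kmt2c the change was larger in NPC, by 0.34 (0.19 to 0.49, adjusted p = 1.6e-04). These 5 values kept their direction and their call under every alternative run. Both interactions use the same WT libraries.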

How the results depend on the processing

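Of 77 member values, those that stayed on their side of the threshold, and if called kept their direction, numbered 73 with DESeq2, 75 with RLE scaling, 76 with halved counts, 67 with no filter, 66 with only the groups compared, 66 with upper quartile scaling and 43 with the offsets for GC content and length. Some values that were not called changed sign, such as Kmt2b in ESC dCD with the offsets (0.04). With the replicate block it was all 77 (Setd1b in ESC dCD 1.26). Deviations of log2 CPM from the group mean were correlated between libraries of different groups. They gave -0.08 to 0.0372 over 45 same-numbered pairs and -0.077 to 0.0637 over 90 other pairs. With 3 libraries per group, these values cannot show what a shared number stands for. The offsets reversed values between stages: Kmt2d in WT (-0.13), Kmt2a (-0.12) and Kmt2d (-0.26) in dCD, and Kmt2a (-0.03), Kmt2c (-0.20), Kmt2d (-0.16) and Setd1a (-0.32) in MLL2dTAG. Upper quartile scaling reversed Setd1a in MLL2dTAG between stages (-0.01) and moved the median of all genes there to -0.11 from 0. The cause was not tested.

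The number of members called moved with the offsets to 5 in ESC dCD, 4 in NPC dCD, 7 in NPC MLL2dTAG, 6 in MLL2dTAG against dCD at each stage, and 6 and 5 in the interactions of dCD and MLL2dTAG. Without a filter it was 2 in NPC dCD and 5 in the MLL2dTAG interaction, and with only the groups compared it was 4 in NPC dCD. Leaving out 1 library gave 2 to 5 in ESC dCD, 1 to 2 in NPC dCD, 2 to 5 in the dCD interaction and 3 to 5 in the MLL2dTAG interaction. Counting depth limits Setd1b most, with 303 counts in its lowest ESC WT library.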
